A study of Mus musculus with 6 samples.

Results

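The nuclear long noncoding RNAs followed here are Malat1, Neat1, Meg3, Rian, Miat and Snhg11, measured in the amygdala of mice by microarray. They are 6 genes of the 18194 named on the array. They were found as all probe sets whose platform annotation carries 1 of these symbols, which gave 28 probe sets: 11 for Meg3, 7 for Malat1, 4 for Rian and 2 each for Neat1, Miat and Snhg11. A probe set is a group of short array probes that together give 1 level for a stretch of transcript. The 6 genes were chosen by measured values of these same arrays, namely the trend of each probe set along the number in the sample title and its difference between diets. Trends and diet differences of these genes are therefore given as descriptions, with errors and no p-values.

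All 6 samples came from male 129S1/SvImJ mice (S1, an inbred strain known for poor fear extinction) aged 8 to 10 weeks. Every mouse, controls included, had undergone fear extinction training and was killed 2 h later. The 3 control mice were fed a control diet (Ctrl) and carry the title numbers 1, 9 and 11, and the 3 mice on the zinc diet (ZnR) carry 3, 7 and 10. Mice are named below by diet and title number, and the labels do not say what the number stands for. They also leave the zinc content of both diets unstated. Each array is 1 mouse's dissected amygdala, a mixed tissue, and levels are log2 values from a 3′ labelling array.

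Long noncoding RNAs are transcribed and often spliced like messenger RNAs but are not translated. Malat1 gathers in nuclear speckles, bodies rich in splicing factors, and Neat1 is the scaffold of paraspeckles, which hold back certain RNAs and RNA-binding proteins. Meg3 and Rian are expressed from the maternal chromosome of the imprinted Dlk1-Dio3 region, where Rian hosts small nucleolar RNAs. Miat (also called Gomafu) marks a nuclear compartment of neurons and binds splicing factors, and Snhg11 is a small nucleolar RNA host gene expressed in neurons. In RefSeq's mouse annotation (GRCm38.p6, used for names and neighbours only), Malat1 and Neat1 lie next to each other on chromosome 19, separated by the small RNA gene Mascrna. Meg3 and Rian lie on chromosome 12, Miat on chromosome 5 and Snhg11 on chromosome 2.

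Promoters of Malat1 and Meg3 are shown because these are the members with the widest differences between arrays and with the most probe sets. RefSeq's table (GRCm38.p6) matched 5 of the 6 members, with 6 entries; Neat1 had none. Each window runs from 250 bases before the start of the gene to 50 bases after it, 5′ to 3′ on the gene's strand. The first is chr19:5802623-5802922 on the minus strand and the second is chr12:109540746-109541045 on the plus strand, the first of 2 Meg3 entries. Capitals mark TGACG on either strand, the core of the cyclic AMP response element.
Malat1: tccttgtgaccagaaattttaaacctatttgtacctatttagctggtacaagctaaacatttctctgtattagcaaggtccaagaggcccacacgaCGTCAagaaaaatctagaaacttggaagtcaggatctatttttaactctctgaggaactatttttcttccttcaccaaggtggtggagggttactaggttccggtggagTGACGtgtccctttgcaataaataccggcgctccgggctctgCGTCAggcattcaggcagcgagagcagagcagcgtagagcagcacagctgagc
Meg3: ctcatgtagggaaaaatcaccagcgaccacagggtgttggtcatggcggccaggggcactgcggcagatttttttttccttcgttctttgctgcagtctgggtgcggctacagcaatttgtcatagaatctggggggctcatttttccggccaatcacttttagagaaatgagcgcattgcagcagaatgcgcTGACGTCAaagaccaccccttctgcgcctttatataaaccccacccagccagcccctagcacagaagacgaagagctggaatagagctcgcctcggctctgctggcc

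TGACG on either strand was found 3 times in the Malat1 window, at -154, -45 and -3 from the start of the gene. In the Meg3 window it was found at -57 and -54, which overlap as the full palindrome TGACGTCA. Of 32851 promoter windows of the same length, 20.8% held TGACG and 1.79% held TGACGTCA. TATAAA, the core promoter element, was found in the Meg3 window at -29 and -25, on opposite strands and overlapping, and in 13.6% of all windows. CCAAT was found once in the Meg3 window and in 37.4% of all windows, and GGGCGG in neither window and in 35.7% of all. The windows of Rian, Snhg11 and the second Meg3 entry held none of these letters, and that of Miat held 1 GGGCGG. These are matches of letters only, and no binding was measured.

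Medians and correlations of the arrays were alike throughout. The medians of the probe sets tested lay between 7.48 and 7.52 on the log2 scale, and pairwise correlations across these probe sets between 0.991 and 0.996. Tests used the 22877 probe sets with a mean log2 level of at least 4, which kept 27 of the 28 member probe sets; the second Neat1 probe set (1442881_at), at 3.32 to 3.74 on the log2 scale, was left out. Markers of neurons were high and even, with a mean log2 level of the 12 genes between 12.26 and 12.33, as in brain tissue. Of the central amygdala, the protein kinase gene Prkcd lay between 5.55 and 6.30 on the log2 scale, and the basolateral marker Rspo2 between 7.78 and 9.13. Rspo2 lay at 8.63 to 9.13 in zinc mice and at 7.78 to 8.25 in control mice. Of the 11 excitatory neuron markers tested, 2 had zinc mice all above control mice and 3 all below, against 6.66% and 5.33% of all probe sets. Choroid plexus markers stood at 8.32 in control mouse 9 (6 of 11 genes tested, mean log2 level) and at 5.48 to 6.13 in the other mice.

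Malat1 levels differed widely between mice, in the order of the title numbers rather than by diet. On probe set 1418188_a_at the log2 level was 13.09 in control mouse 1, 12.72 in zinc mouse 3, 11.97 in zinc mouse 7, 11.94 in control mouse 9, 11.57 in zinc mouse 10 and 10.98 in control mouse 11. Each mouse thus lay below the one with the next lower number, whatever its diet, and the diets overlapped. Between the first and the last array the ratio was 4.33-fold. The fitted slope was -1.84 ± 0.20 log2 units (SE, n = 6) per 10 title numbers, the 38th steepest of the 22877 probe sets tested.

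Probe set 1418189_s_at, which has the same target record in the annotation and is not independent of the first, read 13.81, 13.73, 12.95, 12.82, 12.55 and 12.22 on the log2 scale in the order of the title numbers. Its levels again stepped down at every mouse. Probe set 1438403_s_at, made for another record, read 12.50, 12.20, 11.50, 11.42, 11.14 and 10.50 on the log2 scale in the same order, with the same lack of exceptions. Their slopes were -1.56 ± 0.15 and -1.73 ± 0.20 log2 units (SE) per 10 title numbers. Within the zinc diet alone, zinc mouse 3 exceeded zinc mouse 10 by 2.22-fold, 2.27-fold and 2.09-fold on these 3 probe sets in turn.

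A second pair of Malat1 probe sets, again built on 1 shared record, had a similar course. On 1452378_at the log2 level was 9.31 in control mouse 1, 9.55 in zinc mouse 3, 8.88 in zinc mouse 7, 8.81 in control mouse 9, 8.22 in zinc mouse 10 and 8.23 in control mouse 11. Zinc mouse 3 was highest here, and zinc mouse 10 and control mouse 11 were nearly equal. The slope was -1.24 ± 0.22 log2 units (SE) per 10 title numbers. On 1427285_s_at the log2 level was 6.12, 6.71, 6.25, 6.09, 5.67 and 5.75 in the order of the title numbers, again highest in zinc mouse 3. Its slope was -0.65 ± 0.26, with -1.27 without control mouse 1 and -0.39 without zinc mouse 3.

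On the other Malat1 probe sets this course was weaker or absent. On 1429060_at the log2 level was 11.36 in control mouse 1 and 11.12 in zinc mouse 3, and lay below these in the other mice, the lowest at 10.91. Its slope, -0.38 ± 0.11 log2 units (SE) per 10 title numbers, was -0.23 without control mouse 1. On 1436202_at the levels ran from 7.23 in control mouse 9 to 8.05 in control mouse 11 on the log2 scale, with a slope of -0.018 ± 0.28. The probe sets of this single gene therefore gave slopes from -1.84 to -0.018 log2 units per 10 title numbers, and 4 of the 7 have designs (suffix a or s) that can match related or variant transcripts. Which stretch of Malat1 each probe set reads was not analysed here.

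**Figure D1:**
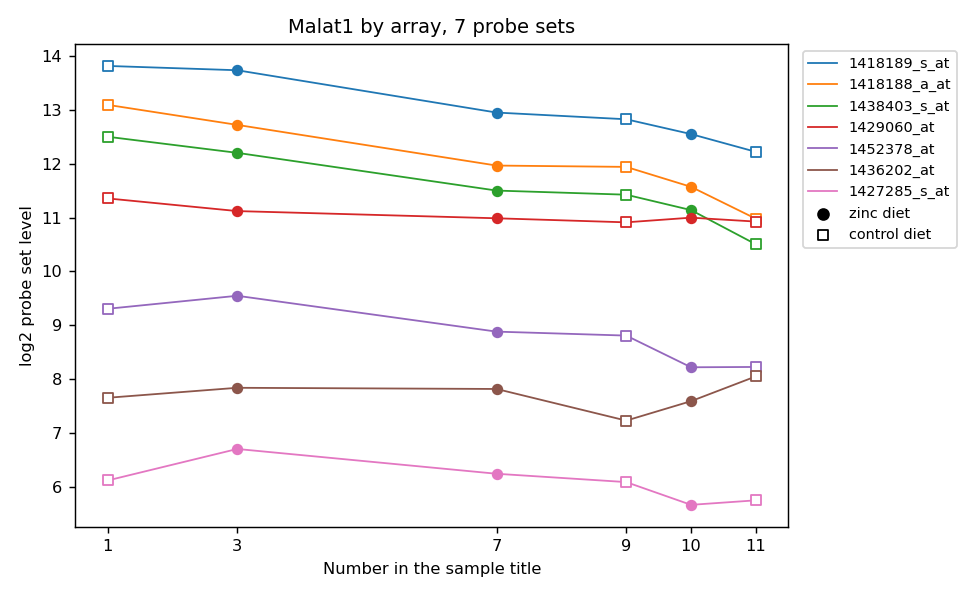
Log2 level of the 7 Malat1 probe sets (vertical axis) against the number in the sample title (horizontal axis), with 1 point per mouse: filled circles for the zinc diet, open squares for the control diet. Probe sets 1418189_s_at, 1418188_a_at and 1438403_s_at step down at every mouse, the second from 13.09 to 10.98, while 1429060_at has all its points between 10.91 and 11.36.

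A slope of -1 log2 unit or steeper per 10 title numbers was seen in 4 of the 27 member probe sets, all of Malat1, and in 1.18% of all probe sets tested. Among the 2606 probe sets with a mean log2 level of at least 11 there were 4 that steep, 3 of Malat1 and 1 of Nedd4, which encodes a ubiquitin ligase. Of these 3, 1418188_a_at and 1418189_s_at share 1 target record and are not separate measurements. The 5th percentile of slopes at that level was -0.17. Leaving out any single mouse kept the slopes of 1418188_a_at, 1418189_s_at and 1438403_s_at between -1.94 and -1.44. Malat1 was chosen partly by this trend, so nothing is read from these counts or slopes.

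Meg3, a maternally expressed RNA of the Dlk1-Dio3 region, differed far less, and mainly through 1 mouse. All 11 of its probe sets were highest in control mouse 1, which was the case for 18.5% of all probe sets tested. On 1429257_at the log2 level was 12.66 in control mouse 1, 12.38 in zinc mouse 3, 12.33 in zinc mouse 7, 12.27 in control mouse 9, 12.10 in zinc mouse 10 and 12.21 in control mouse 11. The levels stepped down as far as zinc mouse 10, and control mouse 11 lay just above it. This probe set had the steepest Meg3 slope, -0.43 ± 0.12 log2 units (SE) per 10 title numbers.

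On 1439380_x_at, which had the flattest Meg3 slope, the log2 level was 13.48 in control mouse 1, 13.17 in zinc mouse 3, 13.35 in zinc mouse 7, 13.24 in control mouse 9, 13.24 in zinc mouse 10 and 13.34 in control mouse 11. Beyond control mouse 1 no order along the numbers was seen. The 11 slopes ran from -0.43 to -0.084 log2 units per 10 title numbers. Without control mouse 1 they ran from -0.29 to 0.13, with 8 of the 11 below 0. Of the 11 probe sets, 3 share 1 target record and 2 other records are shared by 2 each, so they are not 11 separate measurements.

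Rian, the small nucleolar RNA host gene downstream of Meg3, showed both kinds of course on its 4 probe sets. On 1440001_at the log2 level was 10.43 in control mouse 1, 10.14 in zinc mouse 3, 9.92 in zinc mouse 7, 9.87 in control mouse 9, 9.43 in zinc mouse 10 and 9.68 in control mouse 11. It was lower at higher numbers within each diet. On 1428055_at the levels were 10.03, 9.54, 9.24, 9.11, 9.25 and 9.19 on the log2 scale in the order of the numbers, so that control mouse 1 stood apart and the last 4 mice were close together. The slopes were -0.80 ± 0.15 and -0.77 ± 0.17 log2 units (SE) per 10 title numbers, and the second was -0.44 without control mouse 1.

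The other 2 Rian probe sets hardly differed between mice. On 1452899_at all 6 log2 levels lay between 12.91 and 13.01, with a slope of -0.024 ± 0.099 (SE). On 1427580_a_at they lay between 12.01 and 12.26, with a slope of -0.18 ± 0.10. Probe sets of 1 transcription unit therefore differed in slope, as those of Malat1 did.

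Snhg11, a neuronal small nucleolar RNA host gene, split in the same manner. On 1437311_at the log2 level was 12.56 in control mouse 1, 12.51 in zinc mouse 3, 12.29 in zinc mouse 7, 12.31 in control mouse 9, 12.12 in zinc mouse 10 and 12.11 in control mouse 11, which is lower at higher numbers within each diet. The slope was -0.45 ± 0.10 log2 units (SE) per 10 title numbers, and it stayed between -0.49 and -0.42 when any 1 mouse was left out. On 1434292_at the levels lay between 13.79 and 14.04 on the log2 scale, with a slope of -0.066 ± 0.13. Without control mouse 1 that slope was 0.10.

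Miat and Neat1 had no order along the title numbers. Miat, the RNA of a splicing factor-binding nuclear compartment, had slopes of -0.025 ± 0.17 and 0.023 ± 0.15 log2 units (SE) per 10 title numbers on its 2 probe sets. Without control mouse 1 these were 0.27 and 0.24. Neat1, the paraspeckle scaffold, had a slope of 0.067 ± 0.40 on the probe set tested, and -0.39 without control mouse 1.

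**Figure D2:**
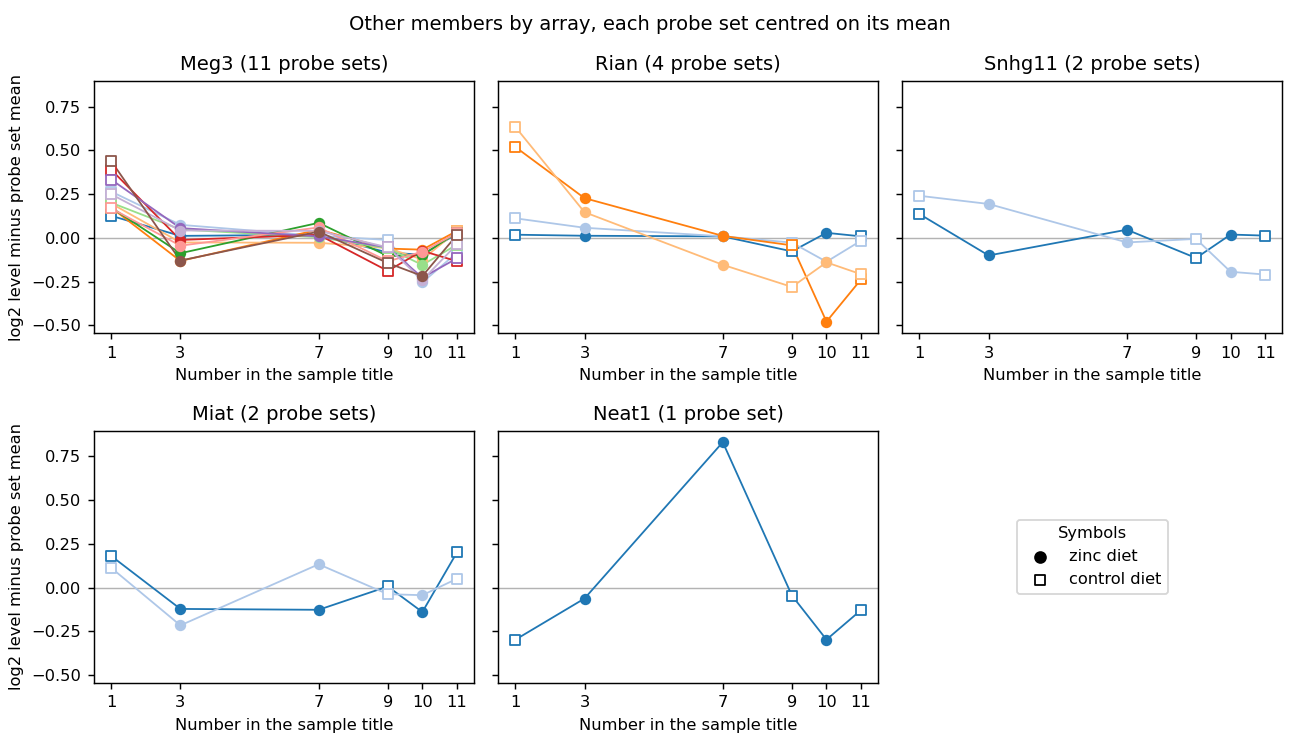
Log2 level minus the probe set's own mean over the 6 mice (vertical axis) against the number in the sample title (horizontal axis) for the tested probe sets of Meg3, Rian, Snhg11, Miat and Neat1, with filled circles for the zinc diet and open squares for the control diet. All 11 Meg3 probe sets are highest in control mouse 1, and Neat1 is highest in zinc mouse 7, at 0.83 above its mean.

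Over all members, 25 of 27 tested probe sets had a slope below 0, against 46.7% of all probe sets tested. The median slope was -0.33 log2 units per 10 title numbers for the members and 0.013 for all probe sets. Within both diets at once, 9 of the 27 stepped down with the title number (5 of Malat1, 2 of Meg3 and 1 each of Rian and Snhg11), against 4.46% of all probe sets, and 0 stepped up, against 3.86%. Because this trend was part of the choice of members, nothing is read from these shares. Without control mouse 1 the number of members below 0 was 21 of 27. For the trend, limma gave 0 of the 22877 probe sets (0%), and so 0 members, an adjusted p under 0.05. Of the 22877, 2169 had an unadjusted p under 0.05, and the smallest adjusted p was 0.052.

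**Figure D3:**
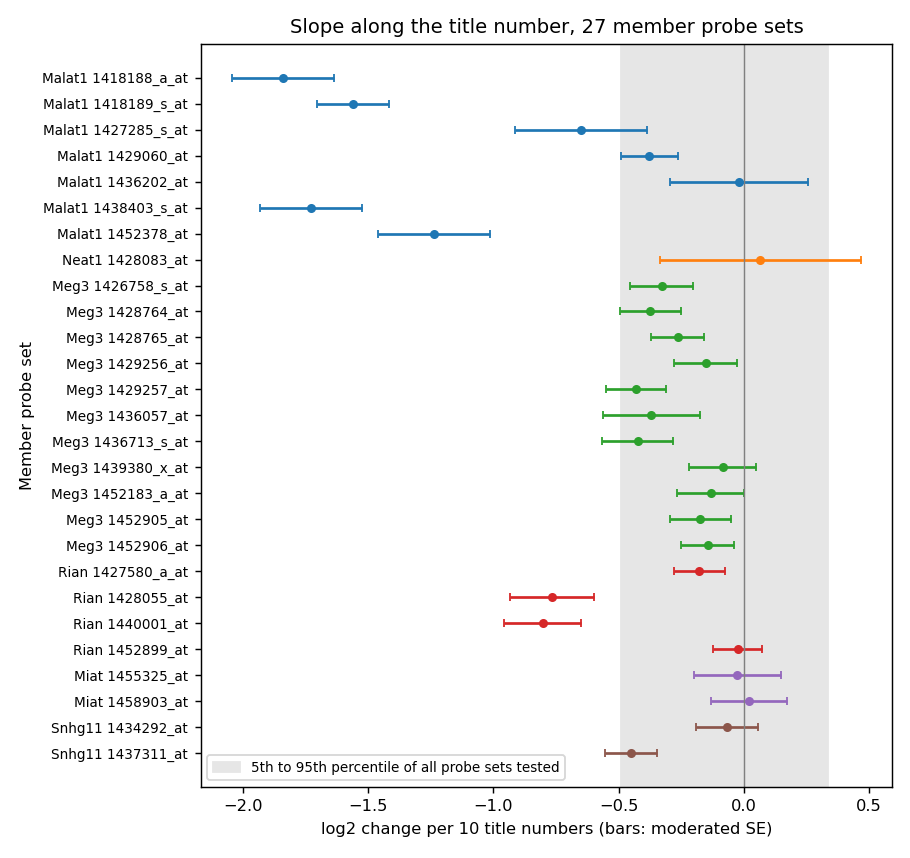
Slope of each of the 27 tested member probe sets (horizontal axis, log2 change per 10 title numbers, bars showing the moderated SE, n = 6 mice), coloured by gene, with the range from the 5th to the 95th percentile of all 22877 probe sets shaded (-0.49 to 0.34). Of the members, 5 Malat1 and 2 Rian probe sets lie outside that range.

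Several measures of the arrays were set beside this course. The 3′ minus 5′ difference of the beta-actin control probe sets, a common sign of RNA integrity and of labelling length, was 0.78, 0.79, 0.79 and 0.75 log2 units in mice 1, 3, 7 and 9, and 0.90 and 0.94 in zinc mouse 10 and control mouse 11. That of Gapdh lay between -0.18 in zinc mouse 3 and -0.044 in control mouse 1, with no order along the numbers. The 5′ probe set for 18S ribosomal RNA was lowest in control mouse 1 (10.67 on the log2 scale) and highest in zinc mouse 3 (12.63). Astrocyte markers had a mean log2 level between 10.37 and 10.52 (12 of 12 genes tested), microglia markers one between 7.07 and 7.21 (10 of 12), and endothelial and pericyte markers one between 7.02 and 7.28 (10 of 12). Of the 12 neuron markers 6 had slopes below 0. Oligodendrocyte precursor markers had slopes above 0 in 7 of 7 genes, with a mean log2 level of 7.48 in control mouse 1 and 7.83 in control mouse 11. Striatal-type spiny neuron markers had slopes above 0 in 9 of 11 tested, with a median of 0.19 log2 units per 10 title numbers. The part of these measures in the members' levels was not tested. In a mixed tissue, fewer cells of a type and less RNA per cell cannot be told apart.

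The genes most like the members in course were taken as those with the highest Pearson correlation, over the 6 mice, with the mean of the 27 centred member probe sets, among 2727 named probe sets that had a mean log2 level of at least 6 and an SD of at least 0.2. They were the nuclear receptor gene Nr2c2 (r = 0.979), the heme exporter gene Flvcr1 (r = 0.978), Ccdc25 (r = 0.977), 9530059O14Rik (r = 0.972) and the DNA polymerase beta gene Polb (r = 0.967). With 6 points and many candidates these values only describe likeness. Each probe set counted equally in the mean, so Meg3 with 11 and Malat1 with 7 weighed most. Neat1 with 1 and Miat with 2 weighed little, and neither had an order along the title numbers. Log2 levels of Flvcr1 were 9.30, 8.92, 8.87, 8.50, 8.44 and 8.57 in the order of the title numbers.

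Between the diets, levels overlapped on every tested member probe set but 1, of Miat. On Miat probe set 1455325_at the log2 level was 12.13, 11.95 and 12.15 in control mice 1, 9 and 11 and 11.82, 11.82 and 11.81 in zinc mice 3, 7 and 10. All 3 zinc mice lay below all 3 control mice. The difference was -0.26 ± 0.080 log2 units (SE, n = 3 each), or 1.20-fold lower, and it stayed between -0.32 and -0.22 under all alternatives run. On the second Miat probe set, 1458903_at, which lies at 5.62 to 5.97 on the log2 scale, the difference was -0.084 ± 0.11 and the diets overlapped.

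Of the 27 tested member probe sets, 1 (Miat) had zinc mice all below control mice, against 5.33% of all probe sets tested, and 0 had them all above, against 6.66%. Diet differences below 0 were seen in 19 of the 27, against 47% of all probe sets, and in 8 of the 27 without control mouse 1. For the diet difference, limma likewise gave 0 of the 22877 (0%) an adjusted p under 0.05, while 1460 had an unadjusted p under 0.05. Striatal-type spiny neuron markers (11 of 12 genes tested) had a mean log2 level of 9.59 to 9.92 in zinc mice and 8.48 to 8.80 in control mice, and their part in the members' diet differences was not tested. The zinc diet against control diet contrast was also part of the choice of members, so nothing is read from these counts.

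For Malat1 the diets overlapped on all 7 probe sets. On 1418188_a_at the mean log2 level was 12.09 ± 0.58 (SD, n = 3) in zinc mice, the SD in control mice was 1.06 (n = 3), and the difference was 0.082 ± 0.54 (SE). Without control mouse 11 the difference was -0.43, and without control mouse 1 it was 0.63. The 7 differences ran from -0.029 to 0.22 log2 units.

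For Meg3 the 11 differences ran from -0.21 to -0.043 log2 units, all below 0. Without control mouse 1 they ran from -0.049 to 0.14, and 5 of the 11 were below 0. For Rian they ran from -0.16 to 0.033, and for Snhg11 they were -0.023 ± 0.092 and -0.017 ± 0.15 (SE). The diets overlapped on every probe set of these 3 genes.

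**Figure D4:**
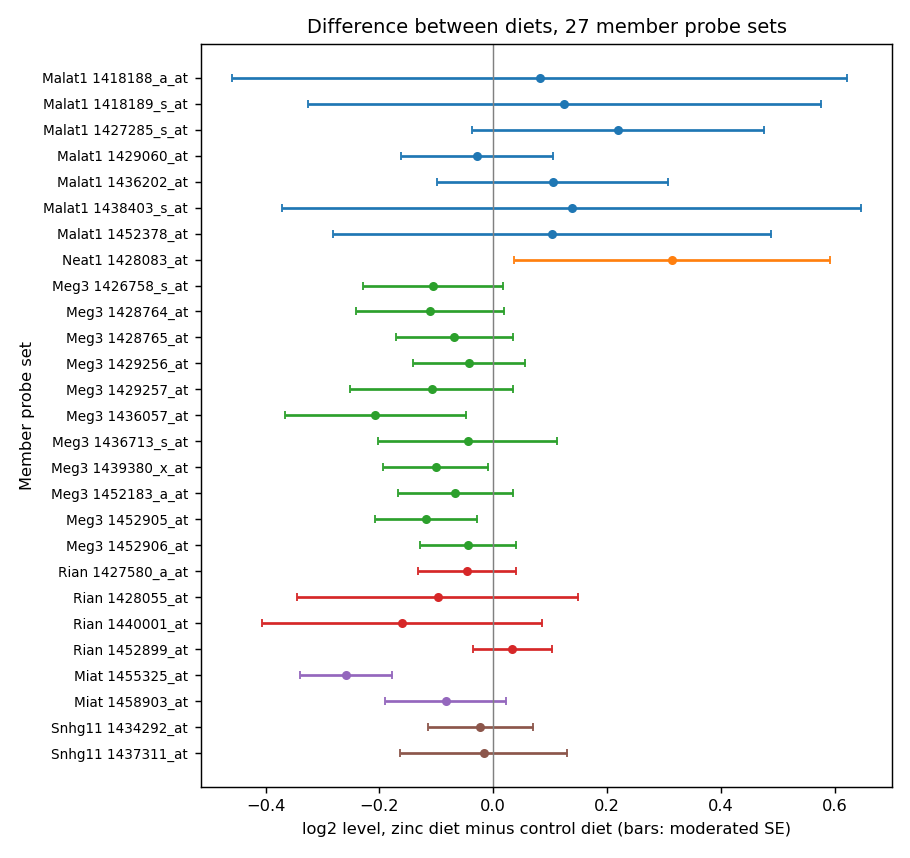
Difference in log2 level between zinc diet and control diet for the 27 tested member probe sets (horizontal axis, zinc minus control, bars showing the moderated SE, n = 3 mice per diet), coloured by gene. The 4 widest bars are of Malat1, as for 1418188_a_at with 0.082 ± 0.54, and Miat 1455325_at lies at -0.26 ± 0.080.

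Neat1 stood apart in 1 mouse. On 1428083_at the log2 level was 7.86, 8.12 and 8.03 in control mice 1, 9 and 11 and 8.10, 8.99 and 7.86 in zinc mice 3, 7 and 10. Zinc mouse 7 was the highest of all, and the other zinc mice lay among the controls. The diet difference was 0.31 ± 0.28 log2 units (SE), and it was -0.023 without zinc mouse 7. Neat1 is known to be expressed in glia as well as in neurons.

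Markers of oligodendrocytes, the myelin-forming cells, were also highest in zinc mouse 7. Their mean log2 level (10 of 12 genes tested) was 10.28 in that mouse and 9.45, 9.64, 9.08, 9.54 and 9.69 in mice 1, 3, 9, 10 and 11. All 10 tested markers were highest in zinc mouse 7, among them the myelin genes Mog (7.85 against 5.91 to 6.84 on the log2 scale) and Mobp (12.06 against 10.79 to 11.47). In control mouse 9, where these markers were lowest, Neat1 was the second highest of the 6. Of the 12 astrocyte markers 5 were highest in zinc mouse 7 and of the 10 microglia markers 0. Striatal-type spiny neuron markers were highest there too, in 10 of the 11 tested. The part of cell makeup in the Neat1 level was not tested.

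**Figure D5:**
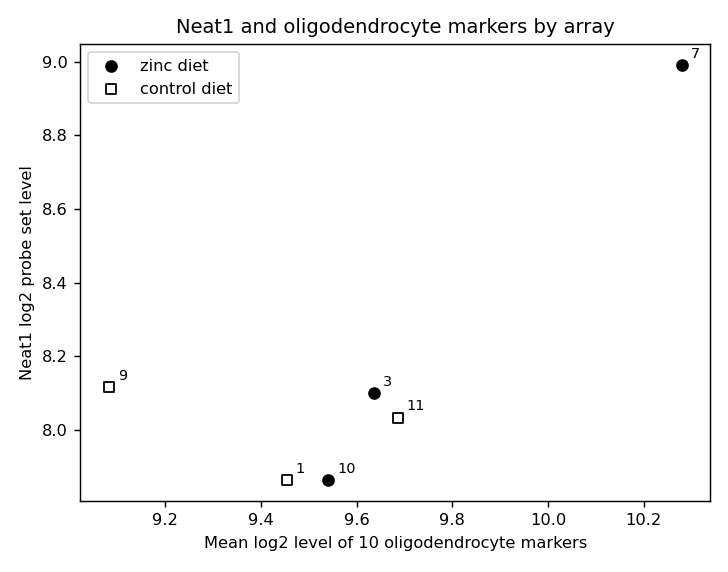
Neat1 log2 probe set level (vertical axis) against the mean log2 level of 10 oligodendrocyte markers (horizontal axis), 1 point per mouse labelled with its title number, filled circles for the zinc diet and open squares for the control diet. Zinc mouse 7 lies alone at 8.99 and 10.28, while the other mice lie between 7.86 and 8.12 on the vertical axis.

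Genes that work with these RNAs were examined as lists, with 1 probe set per gene and members left out. In none of the 6 lists did a gene pass an adjusted p of 0.05 in limma, up or down, for the trend or the diet difference. Over all probe sets tested, an unadjusted p under 0.05 was given to 9.48% for the trend and 6.38% for diet, beside which the counts below stand. Shares over all probe sets, here and below, are not limited to 1 probe set per gene. Among 19 tested paraspeckle proteins 1 had an unadjusted p under 0.05 for the trend and 0 for diet, and the median slope was -0.043 log2 units per 10 title numbers. By the smallest p in each direction, Taf15, an RNA-binding protein gene, had a slope of -0.70 ± 0.17 (SE) and Zc3h6 one of 0.34 ± 0.22. By diet, Hnrnpm differed by 0.097 ± 0.065 and Ewsr1 by -0.12 ± 0.067 log2 units.

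Among 22 nuclear speckle and SR splicing protein genes 3 had an unadjusted p under 0.05 for the trend and 0 for diet. Slopes were below 0 in 18 of them, against 46.7% of all probe sets, with a median of -0.073 log2 units per 10 title numbers against 0.013 for all probe sets. They were below 0 in 13 of the 19 paraspeckle protein genes too. The values for all probe sets include unnamed ones and several per gene, and the lists were chosen with earlier results known. Nothing is therefore read from the comparison. Clk1, a kinase of SR proteins, had a slope of -0.47 ± 0.11 (SE), and Srsf10 had one of 0.14 ± 0.16. The SR protein gene Srsf5 differed between diets by -0.22 ± 0.094 log2 units, and Srsf10 by 0.20 ± 0.097, without overlap of the diets in either.

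Among 17 splicing factor genes that bind Miat or act in neurons, 1 had an unadjusted p under 0.05 for the trend and 1 for diet. The median slope was -0.020 log2 units per 10 title numbers. Ptbp1, a repressor of neuronal exons, had a slope of 0.28 ± 0.11 (SE). Rbfox2 had one of -0.25 ± 0.13 on 1418245_a_at and of 0.20 ± 0.14 on its other probe set, 1434938_at. Srrm4, an activator of neuronal microexons, differed between diets by 0.31 ± 0.11 log2 units on 1435062_at. On its other probe set, 1438523_x_at, the difference was -0.095 ± 0.13. Nova2 differed by -0.14 ± 0.079. For comparison with Miat itself, the diets did not overlap in 5 of these 17 genes, 3 higher and 2 lower in zinc mice, against 6.66% and 5.33% of all probe sets tested. Other lists had such genes too. Higher and lower in zinc mice were 2 and 1 of 19 paraspeckle genes and 1 and 3 of 22 speckle genes. Among 23 other noncoding RNAs they were 3 and 2, and in the Dlk1-Dio3 and neighbour lists 0 and 0.

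In the Dlk1-Dio3 region 4 genes other than Meg3 and Rian were tested, 0 with an unadjusted p under 0.05. Mirg, a microRNA host gene of the same maternal chromosome, read 8.28 in control mouse 1 and 7.44 to 7.72 in the other mice on the log2 scale. Its slope was -0.50 ± 0.22 log2 units (SE) per 10 title numbers and its diet difference -0.098 ± 0.21. Like Meg3 it was highest in control mouse 1. Ppp2r5c had a slope of 0.039 ± 0.11, and Wdr25 a diet difference of 0.18 ± 0.13.

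Among 23 other noncoding RNAs and small RNA host genes 1 had an unadjusted p under 0.05 for the trend and 2 for diet, with a median slope of -0.013 log2 units per 10 title numbers. Snhg10 had a slope of 0.33 ± 0.12 (SE). Dleu2 differed between diets by 0.38 ± 0.11 log2 units on 1427410_at, without overlap. On its other probe set, 1427411_s_at, the difference was 0.028 ± 0.079 and the diets overlapped. Snhg7 differed by -0.27 ± 0.12, with overlap. Among 7 neighbour genes of Malat1 and Neat1 on chromosome 19, 1 had an unadjusted p under 0.05 for the trend and 0 for diet, and slopes were below 0 in 2 of the 7. Of these 2, Ltbp3, picked after its values were seen, had a slope of -0.23 ± 0.20 on the probe set counted here. Over all its probe sets the Ltbp3 slopes ran from -1.14 to -0.21. Tigd3 had a slope of 0.33 ± 0.13 and a diet difference of 0.13 ± 0.12, and Frmd8 -0.23 ± 0.20 and -0.088 ± 0.16.

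Some probe sets of 3 genes of these lists, picked after their values were seen, were also lower at the higher title numbers, while others of the same genes were not or were less so. For Snhg14, the host transcript of the Prader-Willi region, probe set 1445296_at read 7.69, 7.62, 7.03, 6.75, 6.54 and 6.12 on the log2 scale in the order of the title numbers, while another of its probe sets, 1436964_at, had a slope of -0.24 ± 0.20 (SE) and 1455087_at one of 0.074 ± 0.23. For Kcnq1ot1, an imprinted nuclear RNA, 1441588_at read 6.46, 6.51, 5.72, 5.96, 5.11 and 4.75, and the slopes of its 5 probe sets ran from -1.59 to -0.21. For Srrm2, a speckle scaffold protein gene, 1437638_at read 8.61, 7.80, 7.64, 7.08, 7.24 and 6.80, while 1427902_at and 1438688_at had slopes of -0.10 ± 0.16 and -0.33 ± 0.11. On the probe set given by mouse for each of the 3 genes, mice 1 and 3 were above mice 10 and 11. Such slopes were not particular to these 3 genes. In Mbnl1, 1440315_at, at 2.84 to 5.25 on the log2 scale, had a slope of -1.96 ± 0.39, and 1416904_at had one of 0.014 ± 0.12. In Tra2b, 1441466_at had a slope of -1.23 ± 0.21, and 1427432_a_at had one of -0.099 ± 0.11.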

How the data were processed

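Amygdala RNA from 6 mice was read on 6 Affymetrix Mouse430_2 arrays, 1 per mouse, from 500 ng of RNA per the labels' protocols. The authors deposited 1 table of probe set levels, read here as log2 from its values. Per the submitters' processing notes, GCRMA 2.28.0 and R 2.15.1 were among the tools; centring is not stated, and no further normalization was applied. Of 45101 probe sets, 64 controls were left out, 34958 had 1 gene symbol, 932 several and 9211 none. Without scanner files a low level cannot be told from background, and the number of arrays limits precision.

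Two-sided limma 3.58.1 fits in R 4.3.3 (lmFit, eBayes) ran over all probe sets with a mean of at least 4, with diet, or the title number, as the only term; p-values were adjusted by Benjamini-Hochberg. The fits were tested on simulated data. SE is limma's moderated standard error. The labels do not say whether mice shared cages or litters. Gene lists used the probe set with the highest mean per gene, and named the gene with the smallest p in each direction. Members and lists were chosen with earlier results of these data known. Alternatives were leaving out each mouse, the other term as covariate, trend and robust eBayes, quantile normalization, median centring, a floor of 4, and the filter at 6 or absent. The 5 most alike genes were named by correlation, as the report describes.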

Additional observations from a re-analysis of the deposited data

How the results depend on the processing

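For the title number trend, where 0 probe sets passed an adjusted p of 0.05, the count was 26 with no filter, 4 with a mean of at least 6, 21 with trend and robust eBayes, 1 with diet as a covariate, and 0 to 26 when 1 mouse was left out (26 without control mouse 9). Members were selected on this trend, so nothing is read from their place among these. Besides a member, the 4 were Lhfpl3, Ntrk3 and an unnamed probe set, and the 1 was Gnas, all known only after their values were seen. For diet, where 0 passed, the count was 2 with a mean of at least 6 (Foxp2 and Rgs9), 3 with trend and robust eBayes (these and Scn4b), 1 with the title number as a covariate (Rgs9), and 0 without any 1 mouse. Past an unadjusted p of 0.01 there were 705 probe sets for the trend, 1239 with no filter, 398 with a mean of at least 6 and 457 to 839 without 1 mouse. For diet there were 349, 550 with no filter, and 176 (without zinc mouse 7) to 558 (without control mouse 1). The causes were not tested.

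Of the members' slopes, 18 of 27 kept their sign under all alternatives run, as did 7 of 27 diet differences. The Meg3 slopes of 1436057_at, 1452183_a_at and 1439380_x_at ran from -0.57 to 0.021, from -0.23 to 0.036 and from -0.20 to 0.13 without 1 mouse. Each was positive without control mouse 1. The second Miat probe set has no value with a mean of at least 6. No paired analysis was possible because no title number occurs in both diets.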

Other observations

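Levels that stepped down with the title number were not spread evenly over the array, as a look chosen after seeing the data showed. Of the 2711 tested probe sets without a gene symbol, 8.23% stepped down within both diets and 2.88% stepped up. Of the 19649 with 1 symbol, 3.97% stepped down and 4.01% stepped up. A slope of -1 log2 unit or steeper per 10 title numbers was seen in 2.43% of the unnamed and 1.03% of the named probe sets, and a slope of 1 or more in 0 and 3 probe sets.

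Among 5070 genes other than the members with at least 2 tested probe sets, 169 had a probe set with a slope of -1 or steeper. In 143 of these 169 the probe set with the highest mean level had a slope between -0.3 and 0.3, and in 9 it was itself at -1 or steeper: Col11a1, Megf11, Mmp16, Nedd4, Rskr, Xrn2, Zbed6, Zbtb7a and Zfp729a. Steep falls were rarer at high levels: the 5th percentile of slopes was -0.17 at a mean log2 level of at least 11 and -0.49 over all probe sets. Picking the probe set with the highest level may thus itself favour flat slopes. In Malat1 the probe set with the highest mean level, 1418189_s_at, had a slope of -1.56. Malat1 was chosen partly by this slope, so nothing is read from setting it beside these genes.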
